A study of Homo sapiens with 5 samples.

Results

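RNA of human 22Rv1 prostate carcinoma cells that overexpressed the ESM1-NLS form was compared with RNA of cells that carried its empty vector, Vector-2. A gene entered the comparison when its mean over the 2 libraries was at least 1 FPKM, and 13000 of 26506 deposited gene symbols did so. FPKM counts sequenced fragments per kilobase of transcript, scaled to the depth of the library. The measure was the difference of log2(FPKM + 1), ESM1-NLS minus Vector-2, so that a positive value means a higher level with ESM1-NLS. The added 1 shrinks the differences of low genes.

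The series holds 5 libraries, 1 per group. ESM1-NLS overexpression and ESM1-NES overexpression have Vector-2 as their control, and untagged ESM1 overexpression has its own control, Vector-1. All cultures were the same established cell line, grown in RPMI-1640 with 10% fetal bovine serum, and were used 72 h after lentivirus was added. NLS and NES are the usual abbreviations for nuclear localization signal and nuclear export signal, which the labels do not spell out. Whether transduced cells were selected, cloned or pooled, and at what dose of virus, was not given in the sources used here. With 1 library on each side no difference below has a replicate check, and none was tested. Values in parentheses after a ratio are exact 95% intervals on the reads of both libraries. They cover counting error only, and reads copied by PCR are not independent molecules.

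ESM1, also called endocan, is a secreted proteoglycan of endothelial cells that carries a dermatan sulfate chain. Beta-catenin, the effector of canonical Wnt signalling, enters the nucleus when its destruction complex is inactive and acts there with TCF and LEF factors. The series title ties ESM1 in the nucleus to beta-catenin signalling and stemness, so these genes are described first. 22Rv1 cells are prostate carcinoma cells of luminal-like character.

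The sequencing depth was 19975113 expected counts with ESM1-NLS and 24322216 with Vector-2. The difference had a median of 0.02 over the 13000 genes, with quartiles of -0.08 and 0.13, and 88.3% of genes lay within 1.2-fold. Past 1.5-fold, 48 genes were higher (0.369% of those compared) and 65 were lower (0.5%). Past 2-fold, 10 genes were higher (0.0769%) and 6 were lower (0.0462%). Of 9058 protein-coding genes averaging 5 FPKM or more, 5 were higher (0.0552%) and 23 lower (0.254%) past 1.5-fold. Over all 13000 genes 54.1% lay above 0 and 45.5% below 0, and the counts of gene groups are read beside these shares.

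**Figure D1:**
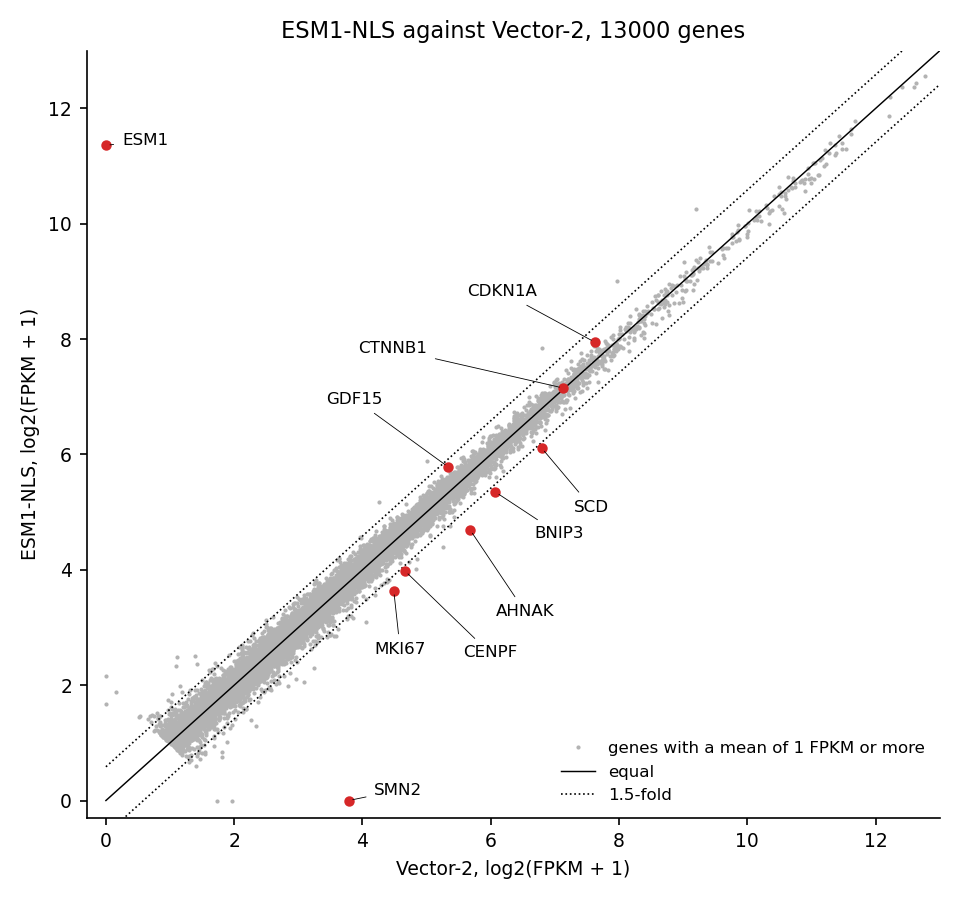
Level of each of the 13000 genes with ESM1-NLS (vertical axis) and with Vector-2 (horizontal axis), both as log2(FPKM + 1), 1 point per gene and 1 library per axis. Most points follow the line of equality, ESM1 stands apart at the upper left, and MKI67, CENPF, BNIP3, SCD and AHNAK lie below the lower dotted line of 1.5-fold.

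ESM1 itself was read at 2627 FPKM with ESM1-NLS and 3431 FPKM with ESM1-NES, against 0 FPKM with Vector-2. In the separately normalised table its level was 2437 FPKM with ESM1, against 0 FPKM with Vector-1. The gene was thus abundant in each overexpressing library and listed at 0 in both vectors. It took 105804 reads with ESM1-NLS, or 0.53% of the library, against 0 reads with Vector-2. The counts do not separate the transgene from the cell's own gene, and they do not show where the protein was.

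CTNNB1, which encodes beta-catenin, had 141 FPKM with ESM1-NLS, against 139 FPKM with Vector-2. Its ratio was 1.01 (0.986 to 1.04), so the 2 libraries did not differ in CTNNB1 RNA beyond counting error. AXIN2, a scaffold of the destruction complex and a feedback target of Wnt, had 1.39 FPKM with ESM1-NLS, against 1.25 FPKM with Vector-2. Its ratio of 1.11 (0.857 to 1.44) has a wide interval because few reads fell on it. LEF1, a DNA-binding partner of beta-catenin, had a ratio of 1.01 (0.891 to 1.14). MYC had 129 FPKM with ESM1-NLS, against 113 FPKM with Vector-2, and its ratio was 1.14 (1.1 to 1.18). Set against genes of like GC content and length, by a correction described further on, the difference of MYC on the log2 scale was 0.04. CCND1, which encodes cyclin D1, had 554 FPKM with ESM1-NLS, against 559.6 FPKM with Vector-2, a ratio of 0.99 (0.978 to 1.0).

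Of 29 Wnt targets 22 reached 1 FPKM. Of these 13 were above 0 and 9 below, with a median difference of 0.04, and none passed 1.5-fold. DKK1, a secreted Wnt antagonist, had 6.77 FPKM with ESM1-NLS, against 5.05 FPKM with Vector-2, a ratio of 1.34 (1.11 to 1.62). NKD2, an inhibitor of Dishevelled, had a ratio of 1.27 (1.0 to 1.61). TCF7, a member of the TCF family, was low and lower still with ESM1-NLS, at 0.78 FPKM with ESM1-NLS, against 1.23 FPKM with Vector-2. Its FPKM ratio was 0.634, and its ratio of reads per library depth was 0.672 (0.461 to 0.973). The targets therefore lay on both sides of 0, and after the same correction 9 were above and 13 below.

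Among Wnt ligands and receptors 31 of 47 genes were measured, 23 above 0 and 8 below, with a median of 0.10. All 5 transducers and all 5 measured antagonists were above 0. After the correction 3 transducers were above 0 and 2 below, with a median of 0.02, and the antagonists had 5 above 0 and a median of 0.07. DVL2, a Dishevelled protein that relays the receptor's signal, had 27 FPKM with ESM1-NLS, against 23 FPKM with Vector-2, a ratio of 1.17 (1.09 to 1.25). LRP6, the co-receptor, was lower, at 6.11 FPKM with ESM1-NLS, against 7.69 FPKM with Vector-2, a ratio of 0.794 (0.739 to 0.854). After the correction the median of the 31 genes was 0.02. Of 27 genes of the destruction complex and of beta-catenin's nuclear partners, 14 were above 0 and 13 below. The coactivators EP300 and CREBBP, both histone acetyltransferases with long transcripts, had ratios of 0.71 (0.667 to 0.755) and 0.804 (0.744 to 0.869).

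Stemness genes lay around 0. Of 25 listed genes 15 were measured, 7 above 0 and 8 below, with a median of 0.00. SOX2, a pluripotency factor, had 1.07 FPKM with ESM1-NLS, against 0.99 FPKM with Vector-2, and POU5F1, which encodes OCT4, had 1.57 FPKM with ESM1-NLS, against 1.95 FPKM with Vector-2. Their ratios of 1.08 (0.725 to 1.58) and 0.805 (0.572 to 1.14) were both within counting error of equality. NANOG had 0.10 FPKM with ESM1-NLS, against 0.090 FPKM with Vector-2, too low for a difference to be detectable at this depth. CD44, a hyaluronan receptor used to mark tumour-initiating cells, had 25.4 FPKM with ESM1-NLS, against 25.9 FPKM with Vector-2, a ratio of 0.978 (0.928 to 1.03). ALDH1A1, an aldehyde dehydrogenase, had a ratio of 1.21 (1.1 to 1.34), and BMI1, a Polycomb subunit, one of 0.825 (0.753 to 0.903).

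Mitosis genes were mostly lower with ESM1-NLS. Mitosis is driven by the kinase CDK1 with its cyclins, while condensins and topoisomerase II shape the chromosomes and kinetochores tie them to the spindle. Many of these genes are transcribed late in the cell cycle, and their promoters are known for an element called CHR. All 56 members were measured, and 48 lay below 0, where 45.5% of all genes did, with a median of -0.14. Past 1.5-fold 2 were lower and 0 higher. The counting interval was wholly below 1 for 39 members and wholly above 1 for 2, against 16.8% and 22.5% of all genes. In bulk RNA fewer dividing cells and less of these RNAs per cell cannot be told apart.

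The promoters of MKI67 and CENPF, the mitosis genes with the largest differences, are given 5′ to 3′ with the CHR letters in capitals. They come from RefSeq on GRCh38.p14 and run from 250 bases before to 50 bases after the start of the gene, at chr10:128126374-128126673 on the minus strand for MKI67 and at chr1:214602945-214603244 on the plus strand for CENPF.
MKI67: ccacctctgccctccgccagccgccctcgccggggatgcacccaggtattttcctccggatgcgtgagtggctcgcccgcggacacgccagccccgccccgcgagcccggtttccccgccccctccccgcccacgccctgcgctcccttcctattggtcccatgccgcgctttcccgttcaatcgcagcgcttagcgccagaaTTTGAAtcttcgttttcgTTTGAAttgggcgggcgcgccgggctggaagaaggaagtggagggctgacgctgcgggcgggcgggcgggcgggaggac
CENPF: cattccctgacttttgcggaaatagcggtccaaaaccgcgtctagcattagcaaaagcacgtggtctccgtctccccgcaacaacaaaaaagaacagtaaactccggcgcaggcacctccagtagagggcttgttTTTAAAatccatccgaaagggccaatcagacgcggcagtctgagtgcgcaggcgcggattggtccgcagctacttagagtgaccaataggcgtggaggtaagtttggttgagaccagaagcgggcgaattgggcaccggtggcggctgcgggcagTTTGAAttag
The letters searched were TTTGAA and TTTAAA on both strands, of which the second reads the same on both. MKI67 held 2 matches and CENPF held 2. Of 48 mitosis genes with a promoter in the table, 37 held at least 1 match (77.1%), against 6625 of all 27305 promoters (24.3%). A match describes the letters and not a measured site.

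All 12 kinetochore genes lay below 0, with a median of -0.27 and 9 intervals wholly below 1. CENPF, a large protein of the outer kinetochore, had 14.8 FPKM with ESM1-NLS and 16.3 FPKM with ESM1-NES, against 24.3 FPKM with Vector-2. Its ratio of ESM1-NLS to Vector-2 was 0.608 (0.581 to 0.635). CENPE, a kinetochore motor, had 4.48 FPKM with ESM1-NLS, against 6.16 FPKM with Vector-2, a ratio of 0.727 (0.663 to 0.797). CASC5, the scaffold also called KNL1, had 7.8 FPKM with ESM1-NLS, against 10.5 FPKM with Vector-2, a ratio of 0.745 (0.692 to 0.801). The ratio was 0.722 (0.582 to 0.893) for CENPI of the inner kinetochore, 0.779 (0.663 to 0.918) for SPC25 and 0.81 (0.756 to 0.867) for NUF2, both of the microtubule-binding NDC80 complex. NDC80 itself was nearer to equality at 0.93 (0.856 to 1.01).

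All 8 chromosome structure genes were below 0 as well, with a median of -0.19 and 8 intervals below 1. MKI67, the Ki-67 protein that coats mitotic chromosomes and is the usual marker of proliferating cells, had 11.4 FPKM with ESM1-NLS and 14.8 FPKM with ESM1-NES, against 21.4 FPKM with Vector-2. Its ratio of ESM1-NLS to Vector-2 was 0.534 (0.51 to 0.559). TOP2A, topoisomerase II alpha, had 69.8 FPKM with ESM1-NLS, against 88.7 FPKM with Vector-2, a ratio of 0.787 (0.765 to 0.809). SMC2 and SMC4, the ATPase core of condensin, had ratios of 0.805 (0.76 to 0.853) and 0.858 (0.814 to 0.904). MKI67 and CENPF have long transcripts, with effective lengths of 11840 and 10247 bases, and long transcripts as a class were lower, as given further on. Set against genes in the same bins of length and GC content, the difference was -0.72 for MKI67 and -0.52 for CENPF. The bin of the longest genes also holds genes under 8000 bases, so part of the length trend can remain in these values.

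Of 18 spindle and cytokinesis genes 15 were below 0, with a median of -0.13. ASPM, a spindle pole protein, had a ratio of 0.735 (0.694 to 0.779). Of 18 regulators and kinases 13 were below 0, with a median of -0.10. BUB1, a checkpoint kinase, had 20.3 FPKM with ESM1-NLS, against 23.9 FPKM with Vector-2, a ratio of 0.849 (0.793 to 0.908). PTTG1, or securin, had a ratio of 0.854 (0.80 to 0.912) and BIRC5, or survivin, one of 0.861 (0.819 to 0.906). CDK1 stood at 0.891 (0.852 to 0.932), FOXM1, which drives late cell cycle genes, at 1.0 (0.952 to 1.05), and the kinase PLK1 at 1.07 (1.01 to 1.14). These regulators spread around a smaller median than the structural genes did.

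After the GC and length correction 52 of the 56 mitosis genes lay below 0, with a median of -0.12. Untagged ESM1 against Vector-1, which shares no library with these 2, had 50 of the same genes below 0, where 46.9% of all its genes were, and a median of -0.15. MKI67 there had 18.4 FPKM with ESM1, against 27.2 FPKM with Vector-1. ESM1-NES against Vector-2, which shares the vector library, had 38 below 0, where 53.9% of all its genes were, and a median of -0.09.

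**Figure D2:**
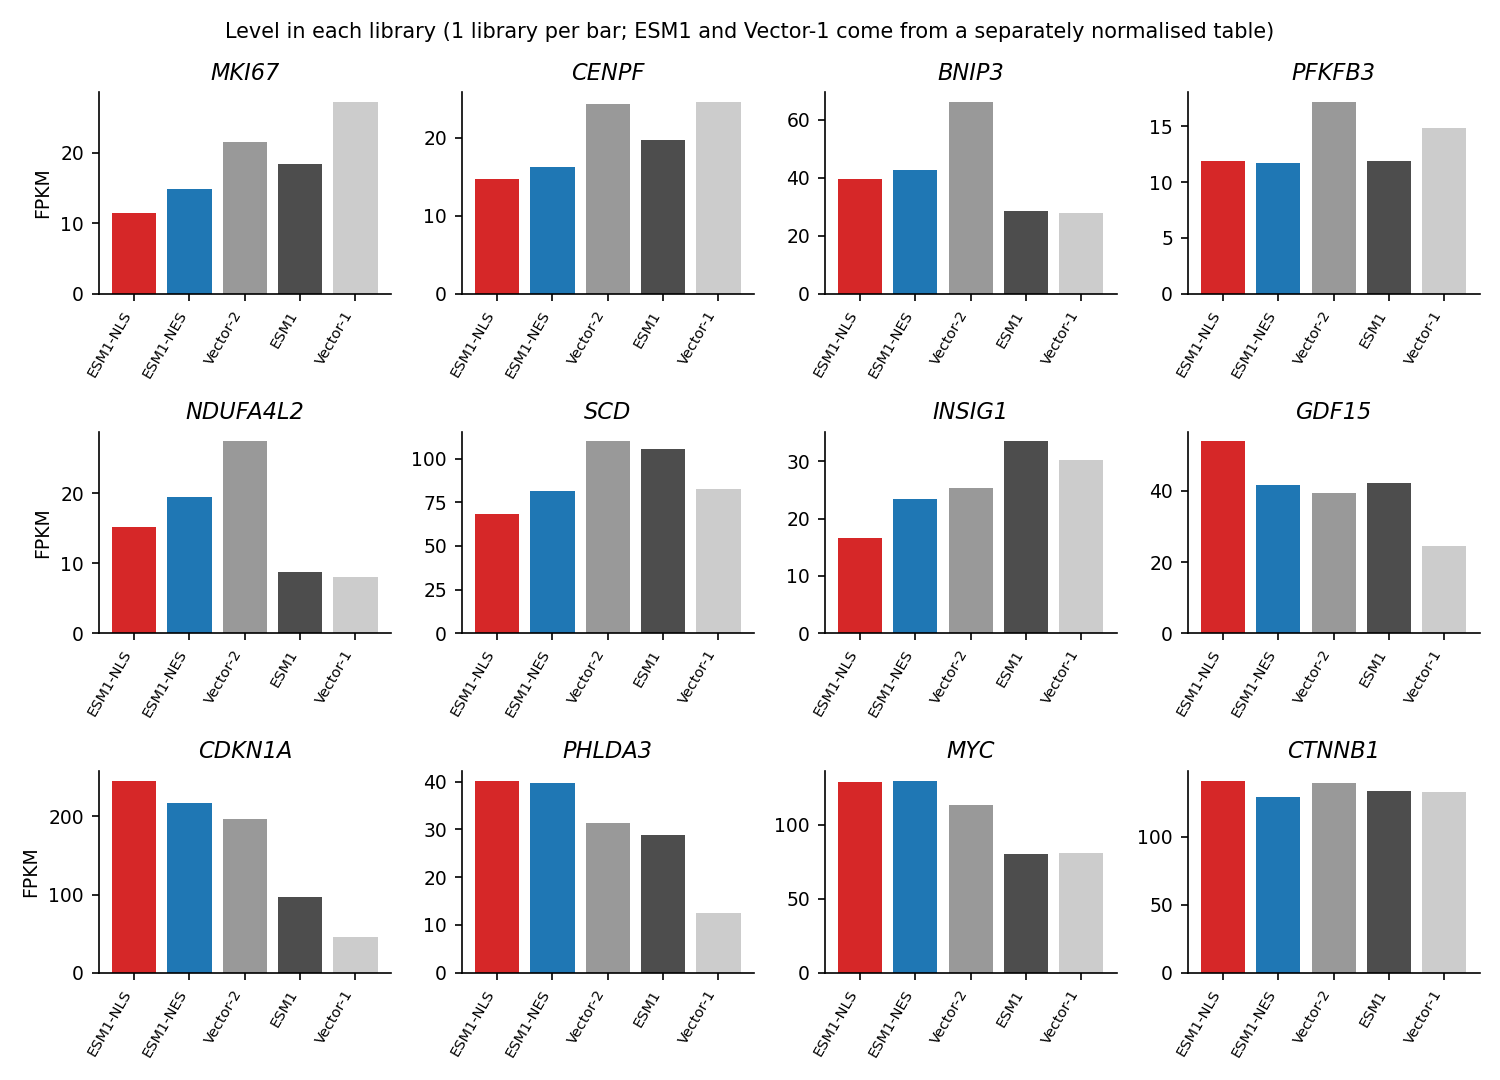
FPKM of 12 genes in each of the 5 libraries, 1 bar per library, on axes that start at 0. MKI67, CENPF, BNIP3, PFKFB3, NDUFA4L2, SCD and INSIG1 have shorter bars for ESM1-NLS than for Vector-2, GDF15, CDKN1A, PHLDA3 and MYC have taller ones, and CTNNB1 is level. ESM1 and Vector-1 come from a separately normalised table.

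DNA replication genes were mostly lower too. Replication starts where the MCM helicase, loaded by the origin recognition complex, is switched on with the GINS complex, and polymerases then work with the PCNA clamp. Of 42 members 30 lay below 0 and 12 above, with a median of -0.12, and none passed 1.5-fold. GINS1 had 14.5 FPKM with ESM1-NLS, against 17.9 FPKM with Vector-2, a ratio of 0.809 (0.744 to 0.88). PCNA had 229 FPKM with ESM1-NLS, against 266 FPKM with Vector-2, a ratio of 0.863 (0.834 to 0.893). Of 6 genes of nucleotide supply 5 were below 0, among them RRM2, a subunit of ribonucleotide reductase, at 0.842 (0.805 to 0.881).

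G1/S control genes did not share that lean, with 3 above 0 and 2 below. CCNE1, or cyclin E1, had 5.34 FPKM with ESM1-NLS, against 4.69 FPKM with Vector-2, a ratio of 1.14 (0.934 to 1.39). E2F1, which turns on S-phase genes, had a ratio of 0.931 (0.864 to 1.0). After the correction 38 of the 42 replication genes were below 0, with a median of -0.14. Untagged ESM1 against Vector-1 had 32 below 0, where 46.9% of all its genes were, and a median of -0.07. ESM1-NES against Vector-2 had 19 below 0, where 53.9% of all its genes were, and a median of 0.01.

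Genes of the hypoxia response held some of the largest negative differences. HIF-1, a dimer of HIF1A and ARNT, binds an element with the core ACGTG or GCGTG and raises glycolytic enzymes, mitophagy receptors and its own hydroxylases when oxygen is scarce. BNIP3 and ANKRD37 are the HIF targets with the largest differences, and their RefSeq promoters on GRCh38.p14 lie at chr10:131981874-131982173 on the minus strand and at chr4:185396591-185396890 on the plus strand. Core letters found on either strand are in capitals.
BNIP3: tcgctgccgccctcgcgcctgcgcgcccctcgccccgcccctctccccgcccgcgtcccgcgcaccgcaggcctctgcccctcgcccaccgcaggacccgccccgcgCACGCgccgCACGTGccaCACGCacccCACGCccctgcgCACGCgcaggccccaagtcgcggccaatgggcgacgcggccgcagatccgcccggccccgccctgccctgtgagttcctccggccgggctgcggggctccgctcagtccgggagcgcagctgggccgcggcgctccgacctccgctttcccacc
ANKRD37: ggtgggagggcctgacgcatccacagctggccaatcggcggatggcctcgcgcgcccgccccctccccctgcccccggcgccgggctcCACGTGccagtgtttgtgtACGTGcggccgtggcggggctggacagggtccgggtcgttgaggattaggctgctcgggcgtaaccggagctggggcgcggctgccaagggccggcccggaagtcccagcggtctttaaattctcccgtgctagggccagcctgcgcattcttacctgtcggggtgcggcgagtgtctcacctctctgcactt
BNIP3 held 6 matches and ANKRD37 held 3, counted over both strands, where matches may overlap. Of 42 HIF targets with a promoter there, 32 held at least 1 match (76.2%), against 13213 of all 27305 promoters (48.4%).

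Of 46 HIF targets 42 were measured, 29 below 0 and 13 above, with a median of -0.10. Past 1.5-fold 2 were lower and 0 higher. All 4 regulators of glycolytic flux lay below 0, with a median of -0.36. Every interval was below 1, against 16.8% of those of all genes. PFKFB3, which makes the activator of phosphofructokinase, had 11.9 FPKM with ESM1-NLS, against 17.2 FPKM with Vector-2, a ratio of 0.691 (0.639 to 0.746). Its relative PFKFB4 had a ratio of 0.725 (0.647 to 0.812). PDK1 and PDK3, which keep pyruvate out of the citrate cycle, had ratios of 0.773 (0.669 to 0.891) and 0.778 (0.723 to 0.838).

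Of 20 other HIF targets 15 were below 0, with a median of -0.14. BNIP3, a mitophagy receptor, had 39.8 FPKM with ESM1-NLS and 42.8 FPKM with ESM1-NES, against 66.3 FPKM with Vector-2. Its ratio of ESM1-NLS to Vector-2 was 0.599 (0.559 to 0.642). ANKRD37, an ankyrin repeat protein, had 1.63 FPKM with ESM1-NLS, against 3.82 FPKM with Vector-2, a ratio of 0.427 (0.267 to 0.664). BNIP3L, the related receptor, had a ratio of 0.776 (0.737 to 0.818), P4HA1, a collagen prolyl hydroxylase, one of 0.786 (0.739 to 0.835), and DDIT4, an inhibitor of mTORC1, one of 0.826 (0.79 to 0.864). VEGFA, the angiogenic factor, had 36.9 FPKM with ESM1-NLS, against 35.8 FPKM with Vector-2, and its ratio of 1.03 (0.974 to 1.09) lay within counting error of equality. The targets were therefore not lower throughout.

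As deposited, glycolytic enzymes lay on both sides of 0, 7 above 0 and 9 below, with a median of -0.02. After the correction 2 were above 0 and 14 below, with a median of -0.13. LDHA, lactate dehydrogenase A, had 339.9 FPKM with ESM1-NLS, against 440.0 FPKM with Vector-2, a ratio of 0.772 (0.756 to 0.789). PGK1, phosphoglycerate kinase, had 257 FPKM with ESM1-NLS, against 333 FPKM with Vector-2, a ratio of 0.773 (0.755 to 0.791). HK2, a hexokinase, had a ratio of 0.756 (0.718 to 0.795), whereas PFKM, the muscle form of phosphofructokinase, was higher at 1.18 (1.14 to 1.22). NDUFA4L2, a mitochondrial protein known to be induced by HIF, is in none of the HIF lists and had 15.2 FPKM with ESM1-NLS, against 27.5 FPKM with Vector-2, a ratio of 0.553 (0.485 to 0.629).

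The oxygen sensors and factors were not lower as a group, with 7 of 8 above 0 and a median of 0.08. HIF1A had 45.4 FPKM with ESM1-NLS, against 45.3 FPKM with Vector-2. EGLN1, the main oxygen-sensing hydroxylase, was the one below 0, at 0.918 (0.858 to 0.983). After the correction 36 of 42 HIF targets were below 0, with a median of -0.18. As deposited, ESM1-NES against Vector-2, which shares the vector library, had 28 of the HIF targets below 0, where 53.9% of all its genes were. Its median was -0.16, so the lean is not particular to ESM1-NLS. Untagged ESM1 against Vector-1 had 23 of the HIF targets below 0, where 46.9% of all its genes were, and a median of -0.03. BNIP3 there had 28.5 FPKM with ESM1, against 27.9 FPKM with Vector-1, so Vector-2 stood above the other 4 libraries in this gene, across tables that were normalised separately.

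Genes of lipid synthesis were mostly lower with ESM1-NLS. When sterols run low, SCAP carries SREBP factors to the Golgi, where they are cut and freed to raise sterol and fatty acid enzymes and INSIG1, which holds SCAP back. Of 32 genes of sterol synthesis 24 were below 0 and 8 above, with a median of -0.12. Among the enzymes 16 of 20 were below 0. INSIG1, the gene of the list with the largest difference, had 16.6 FPKM with ESM1-NLS and 23.4 FPKM with ESM1-NES, against 25.4 FPKM with Vector-2. Its ratio of ESM1-NLS to Vector-2 was 0.652 (0.602 to 0.706). HMGCS1, an early enzyme of the mevalonate pathway, had 20.1 FPKM with ESM1-NLS, against 25.9 FPKM with Vector-2, a ratio of 0.777 (0.736 to 0.821).

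MSMO1, a sterol demethylase, had a ratio of 0.773 (0.734 to 0.815). SCAP was higher, at 29.2 FPKM with ESM1-NLS, against 24 FPKM with Vector-2, a ratio of 1.22 (1.15 to 1.29). Of 12 fatty acid enzymes 8 were below 0, with a median of -0.08. SCD, which puts the double bond into stearate, had 68.1 FPKM with ESM1-NLS and 81.2 FPKM with ESM1-NES, against 110.0 FPKM with Vector-2, and its ratio of ESM1-NLS to Vector-2 was 0.619 (0.602 to 0.637). FASN, fatty acid synthase, had a ratio of 0.819 (0.802 to 0.836). After the correction 26 of the 32 sterol genes were below 0, with a median of -0.16.

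The sterol list lay on the other side with untagged ESM1. Against Vector-1 29 of its 32 genes were above 0, where 52.8% of all genes there were, with a median of 0.18 and all 20 enzymes above 0. SCD had 105 FPKM with ESM1, against 82.5 FPKM with Vector-1, and INSIG1 had 33.5 FPKM with ESM1, against 30.3 FPKM with Vector-1. ESM1-NES against Vector-2, which shares the vector library with ESM1-NLS, had 18 of the 32 sterol genes above 0, where 45.8% of all its genes were. Its median was 0.04, and 13 of the 20 enzymes were above 0. The differences between these comparisons were not tested.

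**Figure D3:**
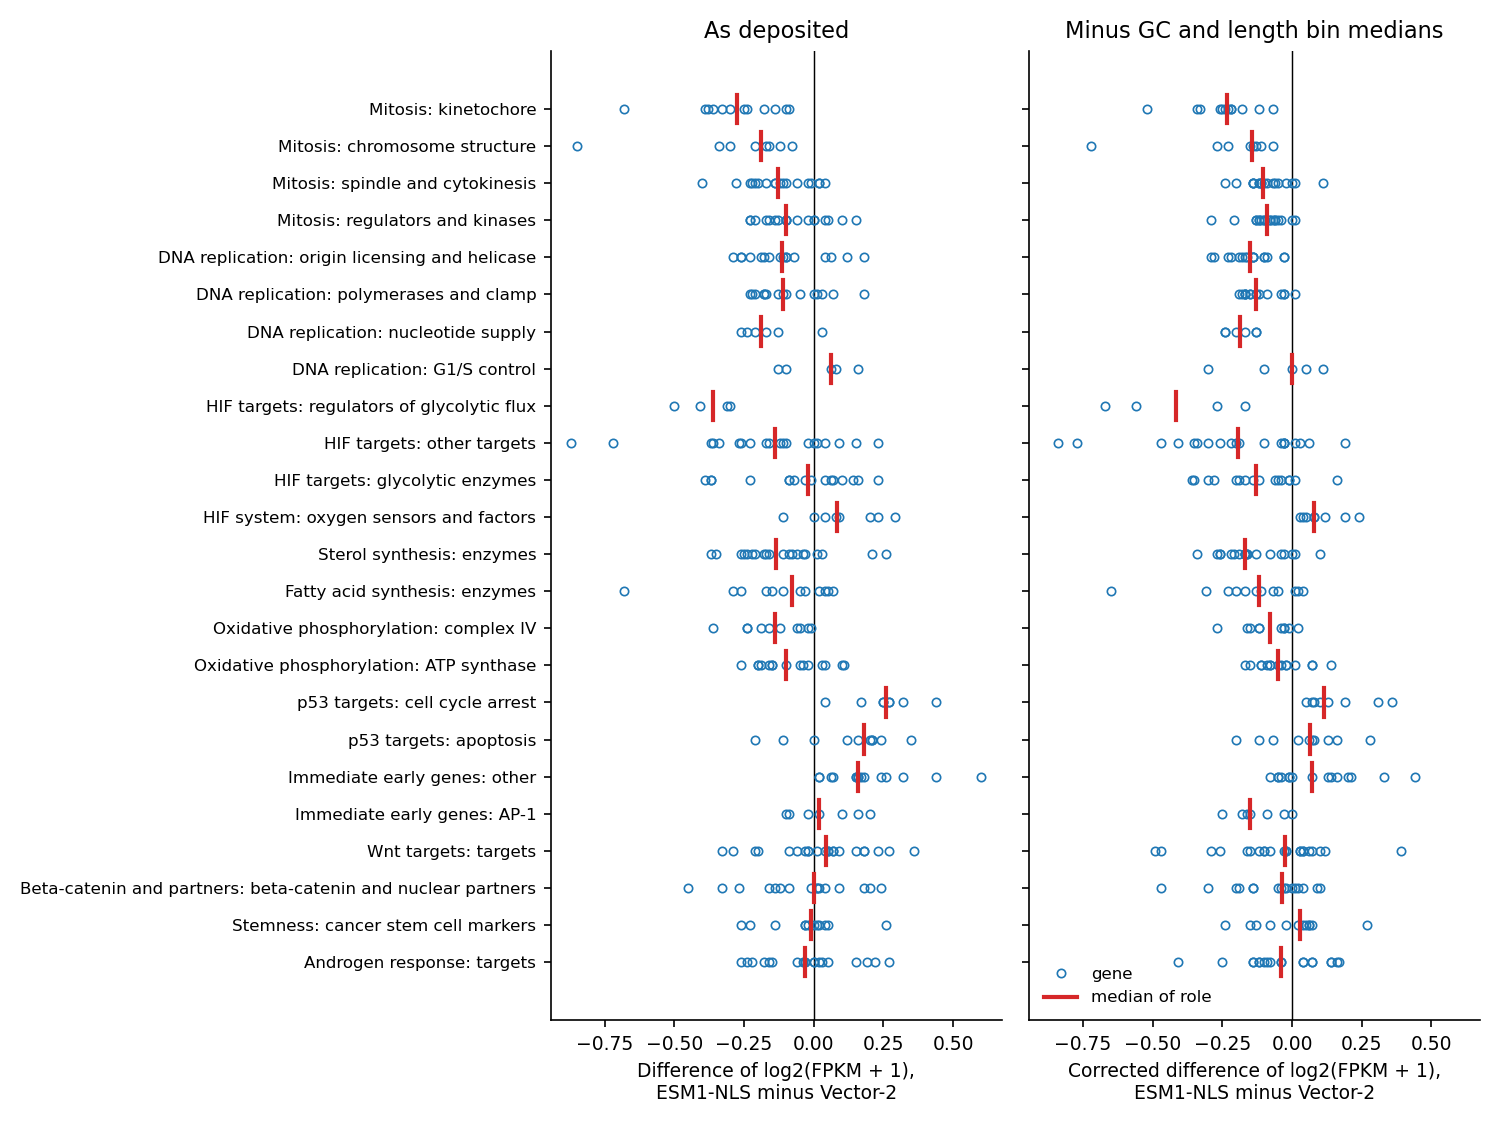
Difference of log2(FPKM + 1), ESM1-NLS minus Vector-2, for the genes of 24 roles, as deposited (left) and after subtracting the median of protein-coding genes of like GC content and length (right). Open circles are genes and bars are medians. Kinetochore genes lie left of 0 and p53 targets of cell cycle arrest lie right of 0 in both panels, while Wnt targets straddle 0.

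Subunits of the respiratory chain were mostly slightly lower. The chain pumps protons through complexes I, III and IV, and ATP synthase uses the gradient. Of 76 nuclear-encoded subunits 58 lay below 0 and 18 above, with a median of -0.10. All 10 genes of complex IV were below 0, with a median of -0.14. COX7B, one of its small subunits, had 399 FPKM with ESM1-NLS and 553 FPKM with ESM1-NES, against 511 FPKM with Vector-2, and its ratio of ESM1-NLS to Vector-2 was 0.78 (0.745 to 0.817). UQCRQ of complex III had a ratio of 0.744 (0.706 to 0.785), and complex II had a median of -0.01. ESM1-NES against the same vector had 69 of the subunits above 0, where 45.8% of all its genes were, and a median of 0.15. After the correction the ESM1-NLS median was -0.05, with 53 of 75 below 0.

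Of 79 ribosomal proteins 57 were below 0, with a median of -0.06. RPS29 of the small subunit had 1158 FPKM with ESM1-NLS, against 1519 FPKM with Vector-2, a ratio of 0.762 (0.738 to 0.787). ESM1-NES against Vector-2 had 78 of them above 0, where 45.8% of all its genes were. Mitochondrial ribosomal proteins were below 0 in 52 of 78 cases. Of 8 Sm proteins, the ring around spliceosomal RNAs, 7 were below 0, with SNRPG at 0.749 (0.705 to 0.796). Of the proteasome subunits 16 were above 0 and 15 below as deposited, and 23 above and 8 below after the correction. ESM1-NES against Vector-2 had 28 of the 31 proteasome subunits above 0, beside the same 45.8% of all its genes. Ribosomal and respiratory transcripts are short, with median effective lengths of 637 and 758 bases. Protein-coding genes under 1000 bases had a median of -0.04 in ESM1-NLS against Vector-2 and of 0.19 in ESM1-NES against Vector-2. The high counts of these lists with ESM1-NES are thus shared by short transcripts as a class.

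Targets of p53 were mostly higher with ESM1-NLS. p53 answers DNA damage and other stress by raising genes that halt the cycle, start apoptosis or repair DNA. Of 29 targets 28 were measured, 21 above 0 and 7 below, with a median of 0.17, and none passed 1.5-fold. The interval was wholly above 1 for 17 and wholly below 1 for 2, against 22.5% and 16.8% of all genes. All 8 genes of cell cycle arrest were above 0, with a median of 0.26. GDF15, a secreted stress cytokine, had 54 FPKM with ESM1-NLS and 41.5 FPKM with ESM1-NES, against 39.5 FPKM with Vector-2. Its ratio of ESM1-NLS to Vector-2 was 1.37 (1.26 to 1.48).

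CDKN1A, the p21 inhibitor of cyclin-dependent kinases, had 246 FPKM with ESM1-NLS and 218 FPKM with ESM1-NES, against 196 FPKM with Vector-2. Its ratio of ESM1-NLS to Vector-2 was 1.25 (1.22 to 1.29). BTG2, an antiproliferative factor, had a ratio of 1.21 (1.15 to 1.27), and PLK2, a stress-induced kinase, one of 1.24 (1.08 to 1.43). Among apoptosis genes PHLDA3, an inhibitor of AKT, stood at 1.28 (1.2 to 1.37) and BBC3, or PUMA, at 1.19 (1.1 to 1.28), while PMAIP1, or NOXA, was lower at 0.855 (0.754 to 0.969). DDB2, which finds ultraviolet lesions, had a ratio of 1.13 (1.04 to 1.22).

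The p53 list is richer in GC than all genes, with a median of 53.6% against 49.9%. After the correction 24 of 28 targets were above 0, with a smaller median of 0.07, and all 8 arrest genes were above 0 with a median of 0.11. Untagged ESM1 against Vector-1 had 27 of the targets above 0, where 52.8% of all its genes were, and a median of 0.54. CDKN1A there had 97.2 FPKM with ESM1, against 45.6 FPKM with Vector-1. ESM1-NES, which shares Vector-2 with ESM1-NLS, had 11 above 0, where 45.8% of all its genes were, and a median of -0.07.

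Immediate early genes, which answer growth factors and stress within minutes, were above 0 in 19 of 22 measured cases, with a median of 0.15. EGR1, a zinc finger factor, had 6.99 FPKM with ESM1-NLS and 4.62 FPKM with ESM1-NES, against 4.9 FPKM with Vector-2, and its ratio of ESM1-NLS to Vector-2 was 1.43 (1.24 to 1.65). KLF2, at 1.97 FPKM with ESM1-NLS, against 0.96 FPKM with Vector-2, was the one member past 1.5-fold, at a ratio of 2.05 (1.34 to 3.15). DUSP1, a MAP kinase phosphatase, had a ratio of 1.26 (1.15 to 1.38). The AP-1 genes had a median of 0.02, and ATF3, a stress-induced partner of JUN, had 49.7 FPKM with ESM1-NLS, against 53.4 FPKM with Vector-2, a ratio of 0.93 (0.877 to 0.987). After the correction the median of the list was -0.01, with 8 above 0 and 14 below, so its lean was not kept.

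**Figure D4:**
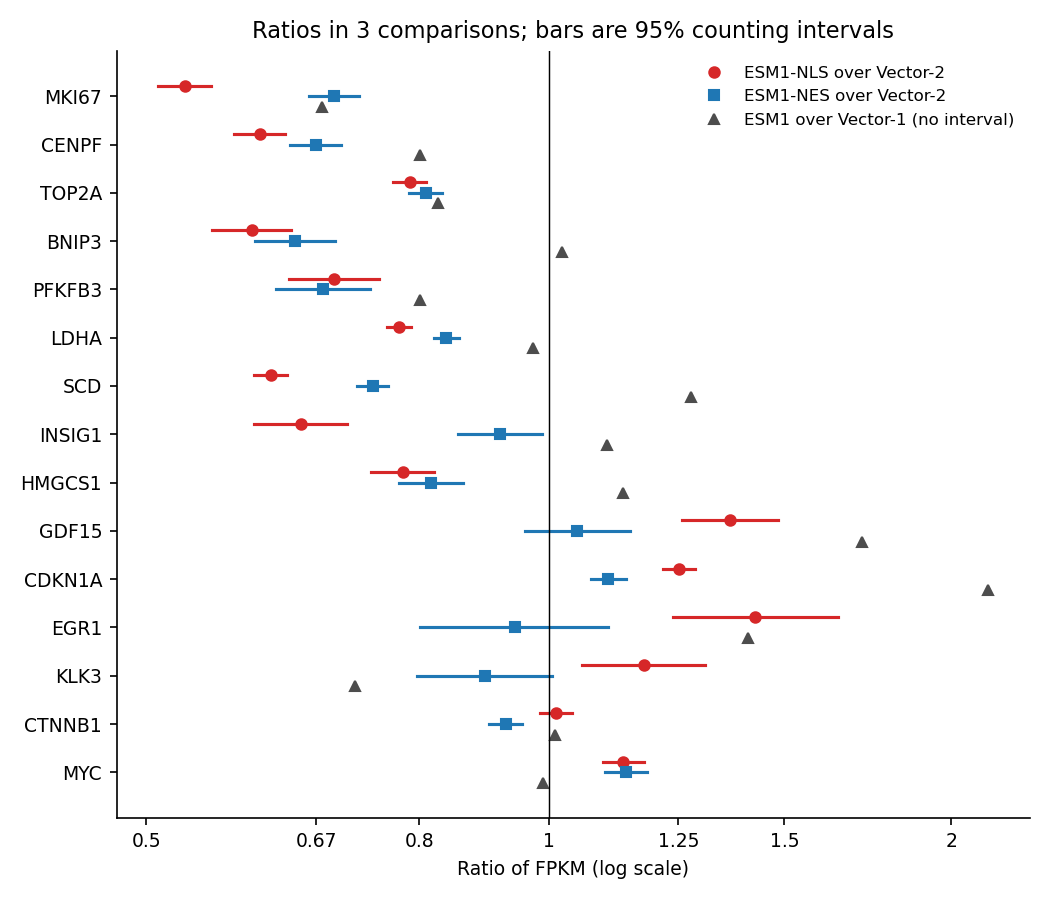
Ratios of FPKM on a log scale for 15 genes in 3 comparisons, with bars for 95% counting intervals where reads were deposited. For BNIP3, SCD and INSIG1 the ratio of ESM1-NLS to Vector-2 lies below 1 and that of ESM1 to Vector-1 above 1, while for MKI67, CENPF and TOP2A both lie below 1 and for GDF15 and CDKN1A both lie above 1. ESM1-NLS and ESM1-NES are divided by the same Vector-2 library.

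Targets of androgen signalling lay on both sides of 0. KLK3, which encodes prostate-specific antigen, had 23.9 FPKM with ESM1-NLS, against 20.3 FPKM with Vector-2, a ratio of 1.18 (1.06 to 1.31). TMPRSS2, an androgen-regulated protease, had a ratio of 1.22 (1.1 to 1.35). The targets NDRG1 and CENPN were lower, at 0.827 (0.775 to 0.8825) and 0.845 (0.801 to 0.892). GATA2, a pioneer transcription factor, had a ratio of 1.27 (1.22 to 1.33). It is listed with the receptor and its cofactors, of which 4 were above 0 and 6 below. Over 19 measured targets 8 were above 0 and 11 below, with a median of -0.03. In the untagged experiment KLK3 had 6.79 FPKM with ESM1, against 9.48 FPKM with Vector-1.

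Nuclear transport genes, whose products carry proteins through the nuclear pore, had a median of -0.04, with 36 of 58 below 0. TPR and RANBP2, both large nucleoporins, had ratios of 0.762 (0.737 to 0.788) and 0.761 (0.729 to 0.796). Importins were split, 8 above 0 and 9 below, and IPO4 had a ratio of 1.21 (1.15 to 1.28). XPO1, the exportin for leucine-rich export signals, had 72 FPKM with ESM1-NLS, against 77.1 FPKM with Vector-2, a ratio of 0.934 (0.905 to 0.964). After the correction the median of the list was -0.01.

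Genes for glycosaminoglycan chains, the kind of chain that ESM1 carries, and for their core proteins were above 0 in 30 of 41 measured cases, with a median of 0.12. CHPF, which extends chondroitin chains, had 21.4 FPKM with ESM1-NLS, against 17.5 FPKM with Vector-2, a ratio of 1.23 (1.13 to 1.33). BGN, the core protein biglycan, had a ratio of 1.46 (1.11 to 1.91), and GPC3, a cell-surface core protein, one of 0.569 (0.371 to 0.842). After the correction 23 were above 0 and 18 below, with a median of 0.05, so the lean was weaker.

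All 10 luminal prostate markers were measured, and their FPKM summed to 1445.6 with ESM1-NLS and 1323.9 with Vector-2. Of 8 endothelial markers only ESAM reached 1 FPKM and CDH5, KDR and CLDN5 were listed at 0 in both libraries, and the list summed to 1.7 FPKM with ESM1-NLS and 1.1 FPKM with Vector-2. Of 9 leukocyte markers CD68 and LYZ were measured and CD3D and MS4A1 were listed at 0 in both, and the list summed to 5.4 FPKM with ESM1-NLS and 3.6 FPKM with Vector-2. Fibroblast and smooth muscle markers, 3 of 10 measured, summed to 13 FPKM with ESM1-NLS and 10.6 FPKM with Vector-2. Basal markers, 2 of 6 measured, summed to 6.1 FPKM with ESM1-NLS and 5.2 FPKM with Vector-2. Luminal markers were thus abundant, and each list of another cell type was low in both libraries. The part of other cells in the results was not tested.

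Differences also followed properties of the transcripts. Across 11989 protein-coding genes Spearman's rank correlation between the difference and GC content was 0.55, a description across genes of 2 libraries. Genes under 40% GC had a median of -0.06, with 72.6% below 0, whereas genes of 60% GC or more had a median of 0.17, with 87.5% above 0. The rank correlation with effective length was -0.20, and GC content and length were themselves related at -0.25. Between 8000 and 12000 bases lay 481 genes, whose median was -0.16, and the median of the 98 longer ones was -0.37, with 96.9% below 0. The part of RNA quality or library preparation in these trends was not tested.

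Long genes held a large share of the lowered set. Of the 65 genes past 1.5-fold lower 22 were longer than 8000 bases, and of the 48 higher ones 0 were. Among the 11989 protein-coding genes 481 lay between 8000 and 12000 bases and 98 beyond. Of these 5 and 16 were past 1.5-fold lower and 0 higher. Long genes are few among all genes, so their absence from the small higher set carries little weight. AHNAK, a giant scaffold protein, had 24.9 FPKM with ESM1-NLS and 27.1 FPKM with ESM1-NES, against 50.2 FPKM with Vector-2, and its ratio of ESM1-NLS to Vector-2 was 0.495 (0.483 to 0.508). The ratio was 0.542 (0.525 to 0.56) for PRKDC, the DNA-dependent protein kinase, 0.575 (0.545 to 0.606) for KMT2A, a histone methyltransferase, and 0.617 (0.596 to 0.638) for DYNC1H1, the dynein heavy chain. BNIP3, NDUFA4L2 and SCD are shorter, at 1560, 1114 and 5405 bases.

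**Figure D5:**
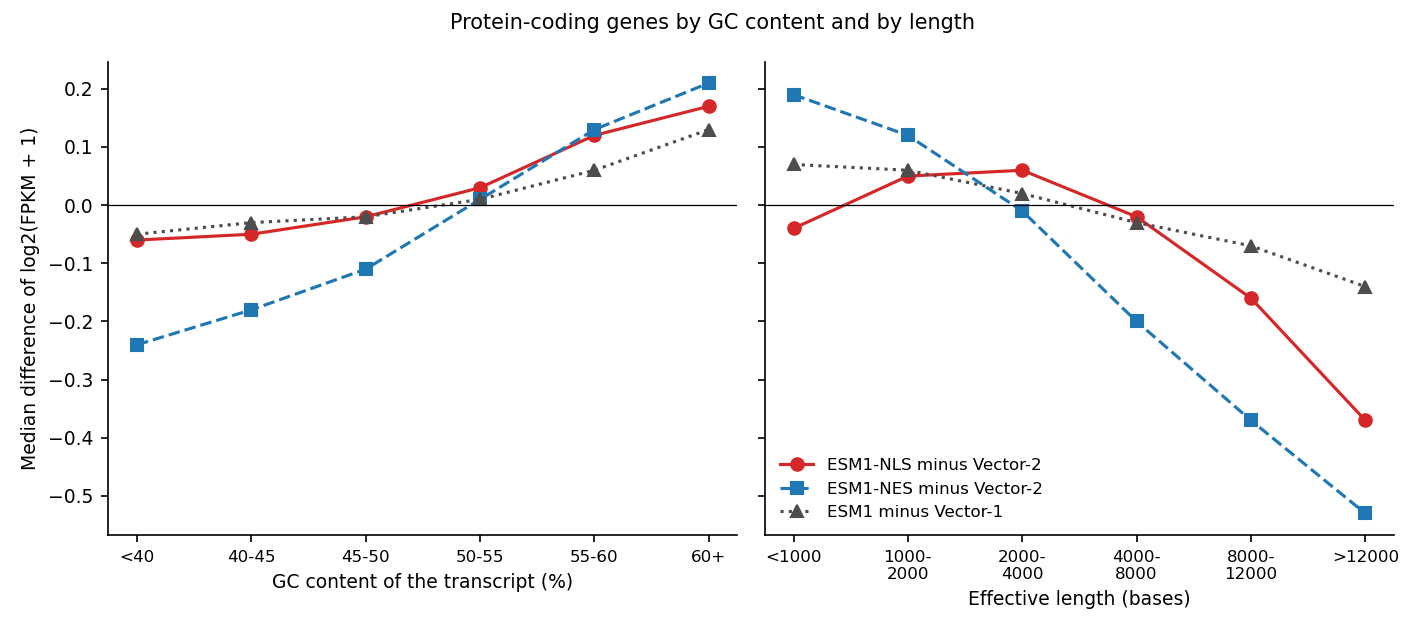
Median difference of log2(FPKM + 1) of protein-coding genes in bins of GC content (left) and effective length (right) for 3 comparisons. In ESM1-NLS against Vector-2 the median reaches 0.17 at 60% GC or more and -0.37 beyond 12000 bases, and the other comparisons also go up with GC content and are lowest for the longest transcripts.

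To set each gene beside others like it, the correction subtracted the median of protein-coding genes in the same of 10 bins of GC content and 10 bins of length. Because the bin of the longest genes reaches below 8000 bases, the trend among very long transcripts can be removed only in part. It left 19 genes higher and 23 genes lower past 1.5-fold among the 11989. BNIP3 stood at -0.77, SCD at -0.65, NDUFA4L2 at -0.91 and PFKFB3 at -0.67 on this scale.

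Among protein-coding genes that averaged 5 FPKM or more, CLIC3, of the chloride intracellular channel family, had the highest ratio after ESM1. It had 6.52 FPKM with ESM1-NLS, against 3.89 FPKM with Vector-2, a ratio of 1.68 (1.22 to 2.31), on 96 and 70 reads. LDHD, a D-lactate dehydrogenase, had a ratio of 1.66 (1.39 to 1.98), REEP2, which shapes endoplasmic reticulum membranes, one of 1.65 (1.37 to 1.99), and CPT1B, the muscle carnitine palmitoyltransferase, one of 1.51 (1.37 to 1.67). BSCL2, or seipin, which acts in lipid droplet formation, had 22.5 FPKM with ESM1-NLS and 25.7 FPKM with ESM1-NES, against 14.7 FPKM with Vector-2, and its ratio of ESM1-NLS to Vector-2 was 1.53 (1.37 to 1.72). These genes are rich in GC, from 55.7% for BSCL2 to 68.3% for CLIC3. After the correction the difference was 0.53 for CLIC3 and BSCL2, 0.42 for LDHD and 0.41 for REEP2 and CPT1B. Each of these is short of 1.5-fold.

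Some of the largest differences concern copies whose reads are hard to divide. SMN2 was listed at 0 FPKM with ESM1-NLS, against 12.8 FPKM with Vector-2, while the near-identical SMN1 had 44.8 FPKM with ESM1-NLS, against 33.8 FPKM with Vector-2. Summed, SMN1 and SMN2 had 44.82 FPKM with ESM1-NLS, against 46.59 FPKM with Vector-2, and the ratio of their reads per library depth was 0.956 (0.89 to 1.03). BAGE4 and BAGE5 summed to 2.7 FPKM with ESM1-NLS, against 3.02 FPKM with Vector-2. The readthrough NME1-NME2 had a ratio of 1.56 (1.36 to 1.8), whereas NME1, NME2 and NME1-NME2 together stood at 0.937 (0.917 to 0.958). Single values of these genes are uncertain. For DMC1 the FPKM ratio was 0.485, but its deposited effective length differed between the 2 libraries.

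Untagged ESM1 against Vector-1 shares no library with ESM1-NLS against Vector-2, so the differences were set side by side. Spearman's rank correlation over 11346 protein-coding genes measured in both was 0.29, and 0.11 after the correction in each. The genes share the GC and length trends, and the correlation is a description across genes. Of 56 genes past 1.5-fold lower with ESM1-NLS that were measured in both, 30 were below 0 in ESM1 against Vector-1 (53.6%), where 46.8% of all genes measured in both were. Of 25 such genes higher with ESM1-NLS 14 were above 0 (56.0%), where 52.9% of all were.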

How the data were processed

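RNA of 5 libraries, 1 per group, was sequenced. Per the submitters' processing notes Trimmomatic, Bowtie2, RSEM and hg19 were used. Their versions and the strandedness of the libraries were not given in the sources used here. Overlapping or antisense genes therefore cannot be told apart. The authors deposited expected counts, TPM and FPKM per gene for Vector-2, ESM1-NES and ESM1-NLS, per the file headers. The deposited table of ESM1 and Vector-1 names no unit in its header and was read as FPKM from its values. The authors' fold change and PPEE columns were not used.

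The difference of log2(FPKM + 1) was taken over genes averaging at least 1 FPKM, and counted past 1.5-fold and 2-fold. Ratios are of FPKM. Their exact 95% conditional binomial (Clopper-Pearson) intervals used expected counts rounded to whole numbers, with the effective lengths of both libraries. Where either library was below 1 FPKM, lengths were not used and the interval is that of the reads per library depth. No fold is given for ESM1, read at 0 in the vector.

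Symbols were matched to RefSeq (25328 of 26506). GC content was known for 99.9% of protein-coding genes. The 42 gene lists, with 81 roles, and the members were chosen with earlier results of these data known. Named genes were ESM1, 11 genes of Wnt signalling, stemness and androgen response, the 15 highest and 15 lowest ratios of protein-coding genes averaging 5 FPKM, the 10 highest and 10 lowest of these after correction, the 6 highest and 6 lowest of all genes, and up to 4 members of each role with the largest differences. Other genes were named after their values were seen, and a few are not reported here.

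The computation was tested on simulated counts. Alternatives were pseudocounts of 0.1 and 5, no filter, a mean of 5 FPKM, TPM, size factors as in DESeq2 1.42.0, TMM of edgeR 4.0.16, the GC and length correction, Vector-1 as control, and protein-coding genes alone. Summing near-identical copies was added after seeing the data. Python 3.11.15, pandas 2.3.3, scipy 1.17.1 and R 4.3.3 were used.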

Additional observations from a re-analysis of the deposited data

Results flagged for a closer look

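For 2 gene lists the median was at least 0.1 from 0 in ESM1-NLS against Vector-2 and at least 0.1 on the other side of 0 in another comparison. Lists nearer to 0 on either side are not given here. Genes of sterol synthesis had a median difference of -0.12 in ESM1-NLS against Vector-2 and of 0.18 in ESM1 against Vector-1. Subunits of oxidative phosphorylation had a median of -0.10 in ESM1-NLS against Vector-2 and of 0.15 in ESM1-NES against Vector-2, which share the vector library. Their transcripts are short, and protein-coding genes under 1000 bases had medians of -0.04 and 0.19 in the same 2 comparisons. With 1 library per group the difference was tested for neither list.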

How the results depend on the processing

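No paired analysis was possible because each group holds 1 library, and for the same reason no replicate could be left out. Past 1.5-fold 48 genes were higher and 65 lower, and past 2-fold 10 and 6. In the same order the counts were 140, 129, 29 and 26 with a pseudocount of 0.1, and 9, 11, 4 and 1 with a pseudocount of 5. They were 94, 115, 24 and 18 without a filter, 11, 28, 4 and 2 at a mean of 5 FPKM, and 119, 133, 32 and 26 in TPM. After the GC and length correction 19 and 23 passed 1.5-fold and 4 were higher past 2-fold. Among protein-coding genes alone 27 and 39 passed 1.5-fold and 3 were higher past 2-fold. Size factors, TMM and summed copies kept each count within 1.5 times.

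Vector-1 as control crosses tables normalised separately, shifted the median of all genes to 0.11, and gave 2323, 811, 703 and 160. List medians then were -0.52 for mitosis, -0.59 for DNA replication, -0.36 for sterol synthesis, 0.85 for p53 targets, 0.69 for immediate early genes, -0.21 for stemness and -0.25 for nuclear transport. Medians of HIF targets (0.12), oxidative phosphorylation (0.05) and androgen response genes (0.08) changed sign, as did the differences of NDUFA4L2 (0.84), BNIP3 (0.50), PRUNE2 (1.04), NBPF14 (0.17), NME1-NME2 (-0.22) and ANKRD37 (0.01). The median of immediate early genes came to -0.01 after the GC and length correction. The cause of these shifts was not tested. Of 3354 values of 345 named genes under the alternatives, 2894 moved by no more than their counting error, 454 moved further and 6, of genes past 1.5-fold, changed sign. Depth limits genes near 1 FPKM, whose intervals are wide.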

Other observations

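Entries of the MTRNR2L family, nuclear copies near-identical to the mitochondrial 16S ribosomal RNA gene, had large positive differences and were singled out after their values were seen. MTRNR2L2 had 1227 FPKM with ESM1-NLS and 868 FPKM with ESM1-NES, against 586 FPKM with Vector-2, and its ratio of ESM1-NLS to Vector-2 was 2.09 (2.05 to 2.14). All 6 measured members of 10 listed were above 0, and 5 were higher past 1.5-fold, with ratios of the 6 from 1.82 to 2.09. In ESM1 against Vector-1 their ratios lay between 0.84 and 1.02. Reads of the family made up 0.204% of ESM1-NLS and 0.143% of ESM1-NES, against 0.099% of Vector-2. Reads of the nuclear copies and of mitochondrial RNA cannot be told apart in these counts.

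Interferon-stimulated genes were above 0 in 12 of 14 measured cases, where 54.1% of all genes were, with a median of 0.10. The counting interval was wholly above 1 for 3 and wholly below 1 for 0, against 22.5% and 16.8% of all genes. After the GC and length correction 9 were above 0 and 5 below, with a median of 0.08. IFITM2, a membrane protein that restricts viral entry, had 79.3 FPKM with ESM1-NLS and 88.5 FPKM with ESM1-NES, against 62.3 FPKM with Vector-2, and its ratio of ESM1-NLS to Vector-2 was 1.27 (1.17 to 1.39). B2M, the light chain of class I molecules, was lower at 0.85 (0.808 to 0.893). HSPB1, a small heat shock protein, had 644 FPKM with ESM1-NLS, against 517 FPKM with Vector-2, a ratio of 1.25 (1.21 to 1.28). Of 13 heat shock genes 9 were above 0, where 54.1% of all genes were, with a median of 0.07. After the correction 9 were above 0 and 4 below, with a median of 0.01. CYP1A1, a target of the aryl hydrocarbon receptor, had 5.86 FPKM with ESM1-NLS, against 4.21 FPKM with Vector-2, a ratio of 1.39 (1.17 to 1.65).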
